A study of Mus musculus with 12 samples.

Results

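Vitamin A uptake and retinoid metabolism in the intestinal epithelium are described here through 9 named genes, *Scarb1*, *Bco1*, *Isx*, *Rbp2*, *Lrat*, *Rdh7*, *Aldh1a1*, *Rara* and *Rxra*. They were chosen by name as rows of a count table of 34245 genes, and all 9 passed the filter on low counts in every comparison. The table holds RNAseq libraries of sorted mouse small intestinal cells, with 3 libraries each of intestinal stem cells (ISC) from young mice, ISC from aged mice, adult enterocytes (AE) from young mice and AE from aged mice. All mice were male C57BL/6 Lgr5-GFP animals, which carry EGFP and CreERT2 knocked in at *Lgr5*, and were 33 weeks old on average in the young cohort and 85 weeks older in the aged cohort. No group received a treatment. ISC were sorted as GFP-high cells of crypt suspensions without antibody staining, and AE as Epcam-high villus cells negative for CD45 and CD31, so that the AE gate takes villus epithelium and not enterocytes alone. Each library is named here by its column code, Y1, Y2 and Y3 for young and O1, O3 and O5 for aged mice, which ISC and AE share, and it was placed in the age and cell type that the column name spells. Columns were not joined to sample titles, since in 8 of 12 titles the leading code contradicts the group named after it.

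Vitamin A reaches the intestine as preformed retinyl esters and as provitamin A carotenoids. Enterocytes of the villus take up carotenoids through the scavenger receptor encoded by *Scarb1* and cleave beta-carotene to retinal with the oxygenase encoded by *Bco1*. Retinal is reduced to retinol, which is bound by the cellular retinol-binding protein of *Rbp2* and esterified by the acyltransferase of *Lrat* for export in chylomicrons. Retinol can also be oxidised, by enzymes such as that of *Rdh7*, back to retinal and then, by that of *Aldh1a1*, to retinoic acid, the ligand of the receptor encoded by *Rara*, which binds DNA with the retinoid X receptor encoded by *Rxra*. *Isx* encodes an intestinal homeobox factor that is known to respond to retinoic acid and to repress *Scarb1* and *Bco1*.

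The promoters of *Rbp2* and *Bco1* are shown first, because these genes act next to each other in the pathway and both were higher in AE than in ISC. RefSeq promoter windows of GRCm38.p6, from 250 bases before to 50 bases after a start, were found for 8 of the 9 genes, in 14 windows. No window was found for *Scarb1*. Capitals mark the letters TGACCTTTG, which form part of a direct repeat of the kind bound by RXR heterodimers, and TATAAA, the letters of a TATA box.
*Rbp2*, chr9:98490387-98490536 of GRCm38.p6, plus strand: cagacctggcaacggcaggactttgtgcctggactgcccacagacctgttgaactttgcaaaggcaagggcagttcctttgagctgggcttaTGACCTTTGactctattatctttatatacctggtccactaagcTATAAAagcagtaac
*Bco1*, chr8:117095715-117095853 of GRCm38.p6, plus strand: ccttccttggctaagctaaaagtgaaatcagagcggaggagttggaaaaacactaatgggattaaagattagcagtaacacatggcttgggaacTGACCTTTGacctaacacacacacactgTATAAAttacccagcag

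The *Rbp2* stretch holds the 150 bases before the RefSeq start at 98490537, which lie in an intron of the longer gene that the count table gives. The *Bco1* stretch holds 139 bases and lies outside the annotated gene. The letters TGACCTTTG begin 58 bases before the start in *Rbp2* and 56 bases before it in *Bco1*, and TATAAA begins 15 and 28 bases before it. Read on both strands, TGACCTTTG occurred in 157 of 32851 promoter windows (0.478%) and TATAAA in 4473 windows (13.6%). Among the 14 windows of these genes, each of these motifs was found in 2, those of *Rbp2* and *Bco1*. TGACCTTTG was chosen after these promoters had been read, so its presence in both is a description, and no binding was measured.

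In GRCm38 the 9 genes lie on 8 chromosomes. *Rbp2* spans 98486115 to 98509781 of chromosome 9 and *Isx* spans 74873173 to 74893506 of chromosome 8, where *Bco1* spans 117095854 to 117133720. *Scarb1* lies on chromosome 5 (125277087 to 125341094), *Lrat* on chromosome 3 (82892579 to 82903973) and *Rdh7* on chromosome 10 (127884028 to 127888817). *Aldh1a1* lies on chromosome 19 (20492715 to 20643462), *Rara* on chromosome 11 (98927818 to 98974942) and *Rxra* on chromosome 2 (27676440 to 27762957). Counts were taken over the merged exons, and no exon of the 9 genes overlaps an exon of another gene in GENCODE M21. Of the 50-base stretches of the *Rdh7* transcripts, 12.9% also occur in transcripts of neighbouring *Rdh* genes and *Hsd17b6*, and 3.06% of those of *Aldh1a1* occur in its neighbour *Aldh1a7*, so part of the reads of these genes could not be placed uniquely. The share was at most 1.49% for the other genes.

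The libraries held 11893817 to 110794420 counts, the highest in the AE library of Y3, and pairs of libraries of a group differed by more than sampling noise (a chi-square of 31.2 to 258 for each degree of freedom). Levels are CPM (counts scaled to a fixed library total) with library totals scaled by TMM, a scaling that takes the bulk of genes as unchanged, and 3 counts correspond to 0.0359 to 0.327 CPM. *Lgr5*, the stem cell marker behind the GFP gate, was at 98.7 ± 31.4 CPM (SD, n = 3) in young and at 119 ± 24.5 CPM in aged ISC, against 2.44 ± 2.11 and 0.966 ± 0.387 CPM in AE. The summed level of 20 enterocyte markers was 80191 to 126040 CPM in AE and 2477 to 11253 CPM in ISC. Of these markers, 20 of 20 were higher in AE at both ages, and 13 of 13 stem cell markers were lower. Markers of goblet cells, 7 genes, summed to 29902 to 61652 CPM in AE. Within ISC the enterocyte marker sum was highest in Y3 (11253 CPM) and lowest in O1 (2477 CPM), with 5310 CPM in Y1, 5163 CPM in Y2, 6767 CPM in O3 and 4232 CPM in O5. ISC libraries are therefore given one by one below. Fewer cells of a type and less RNA per cell cannot be told apart in such bulk samples.

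Compared per kilobase of merged exon, *Rbp2* was the most abundant of the 9 genes in both cell types, at 3548 ± 154 CPM per kilobase (SD, n = 3) in young AE and 312 ± 226 in young ISC. In young AE it was followed by *Aldh1a1* at 390 ± 378 and *Rdh7* at 185 ± 44.5 CPM per kilobase, which did not differ beyond the spread of *Aldh1a1*. *Isx* at 75.3 ± 18.1, *Rxra* at 43.3 ± 7.42 and *Rara* at 11.2 ± 1.51 CPM per kilobase came next. *Lrat* at 5.84 ± 1.27, *Bco1* at 5.59 ± 3.61 and *Scarb1* at 4.31 ± 1.55 CPM per kilobase were lowest and lay within one another's spread. In young ISC, *Isx* stood second at 57.8 ± 2.38 CPM per kilobase, ahead of *Aldh1a1* at 40.2 ± 51.4, *Rdh7* at 34.01 ± 24.4 and *Rxra* at 19.3 ± 2.26, although the spread of *Aldh1a1* and *Rdh7* took in the level of *Isx*. *Bco1* and *Scarb1* were lowest in young ISC, at 0.940 ± 0.308 and 0.932 ± 0.165 CPM per kilobase.

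Whether the machinery of vitamin A absorption differs between stem cells and their differentiated progeny was asked by setting AE against ISC at each age. In young mice, 7 of the 9 genes were higher in AE than in ISC and 0 were lower at an FDR under 0.05, where 27.7% of all 16681 genes tested were called higher and 25.4% lower. In aged mice the same 7 genes were higher and 0 lower, where 30% of 15855 genes were called higher and 34.1% lower. The 7 genes were those for carotenoid uptake and cleavage (*Scarb1*, *Bco1*), retinol binding (*Rbp2*), oxidation (*Rdh7*, *Aldh1a1*) and retinoid receptors (*Rara*, *Rxra*). *Lrat* and *Isx* were not called at either age. The median log2 fold change (log2FC) of the 9 genes was 2.21 in young and 1.77 in aged mice, against 0.15 and -0.13 over all genes tested.

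**Figure D1:**
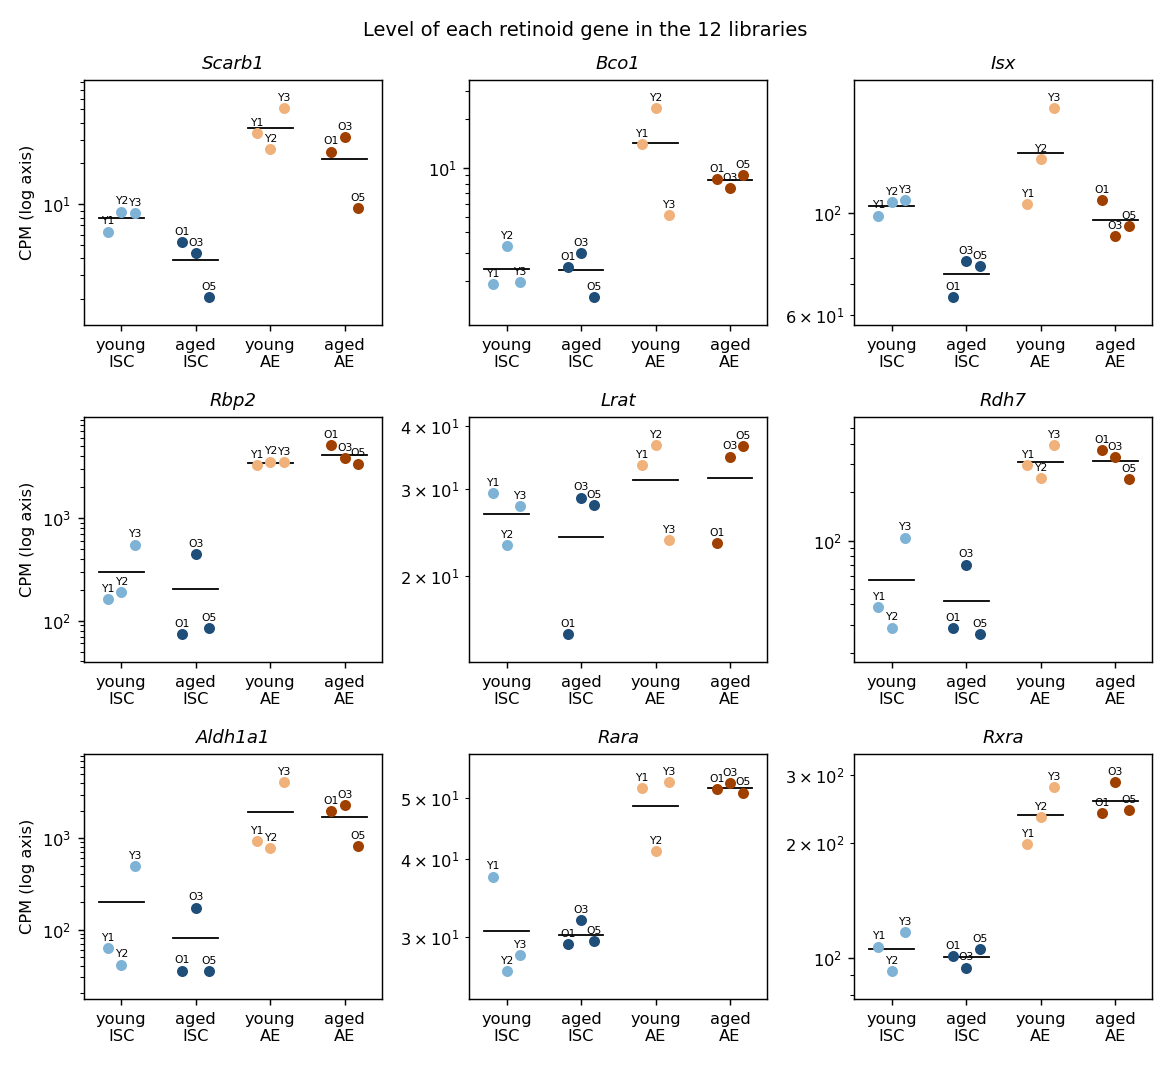
CPM of each of the 9 genes (log axis) in young ISC, aged ISC, young AE and aged AE, with 1 point per library labelled with its code and a line at the mean of 3 libraries. *Rbp2* and *Aldh1a1* are separated between ISC and AE and are highest within ISC in Y3 and O3, while *Lrat* overlaps between all groups.

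*Scarb1*, the uptake receptor, was at 6.31, 8.86 and 8.59 CPM in ISC of Y1, Y2 and Y3 and at 33.4, 25.4 and 51.2 CPM in AE of the same codes. In aged mice it was at 5.30, 4.37 and 2.09 CPM in ISC of O1, O3 and O5 and at 24.5, 31.3 and 9.38 CPM in AE. Every AE library was above every ISC library, and O5 was the lowest of the aged libraries in both cell types. Between cell types *Scarb1* had a log2FC (AE over ISC) of 2.21 (SE 0.29, FDR = 5.99e-04) in young and 2.40 (SE 0.46, FDR = 0.00120) in aged mice.

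*Bco1*, which encodes the beta-carotene oxygenase, was low in ISC, at 1.91, 3.29 and 1.97 CPM in Y1, Y2 and Y3 and at 2.44, 2.97 and 1.60 CPM in O1, O3 and O5. In AE it was at 14.0, 23.5 and 5.12 CPM in the young and at 8.56, 7.53 and 9.05 CPM in the aged libraries. All AE libraries were above all ISC libraries, but the young AE libraries were spread from Y3 up to Y2 while the aged ones lay close together. *Bco1* thus had a log2FC of 2.55 (SE 0.55, FDR = 0.00517) in young and 1.77 (SE 0.30, FDR = 5.09e-04) in aged mice, and the former was 1.86 without the AE library of Y2. That library was also the highest of the AE libraries in the summed stem cell markers (799.5 CPM, against 186 to 336 CPM in the other 5) and in 15 proliferation markers (579 CPM, against 115 to 201 CPM), whose part in the *Bco1* value was not tested. *Bco2*, a paralog that encodes the mitochondrial carotenoid oxygenase, was at 194.6 ± 14.2 CPM in AE of young mice and at 172 ± 31.4 CPM in AE of aged mice, against 28.7 ± 16.3 and 26.4 ± 10.02 CPM in ISC. *Bco2* had a log2FC of 2.76 (SE 0.37, FDR = 6.30e-04) in young and 2.63 (SE 0.27, FDR = 1.94e-05) in aged mice.

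*Rbp2*, the retinol-binding protein gene of absorptive cells, was at 162, 188 and 550 CPM in ISC of Y1, Y2 and Y3 and at 74.1, 446 and 83.9 CPM in ISC of O1, O3 and O5. In AE it was at 3248, 3533 and 3459 CPM in the young and at 5097, 3782 and 3378 CPM in the aged libraries. It was thus even across young AE and uneven across ISC, where Y3 and O3 stood above the other 4 libraries. In the test of AE against ISC, *Rbp2* had a log2FC of 3.51 (SE 0.50, FDR = 8.32e-04) in young mice, an 11.4-fold difference, and 4.26 (SE 0.70, FDR = 4.27e-04) in aged mice, a 19.2-fold difference. It was 4.29 without the ISC library of Y3 and 5.62 without that of O3.

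*Lrat*, which encodes the enzyme that esterifies retinol, was at 29.4, 23.1 and 27.7 CPM in ISC of Y1, Y2 and Y3 and at 33.4, 36.6 and 23.6 CPM in AE. In aged mice it was at 15.3, 28.8 and 27.8 CPM in ISC of O1, O3 and O5 and at 23.3, 34.8 and 36.4 CPM in AE. The groups overlapped at both ages. *Lrat* had a log2FC of 0.22 in young mice (2 SE interval from -0.20 to 0.64, FDR = 0.397) and 0.33 in aged mice (from -0.21 to 0.86, FDR = 0.304), so that a difference of the size seen for *Scarb1* or *Bco1* lay outside these intervals. The acyltransferase genes *Dgat1* and *Dgat2*, which also act on triglycerides, were both higher in AE, with log2FCs of 2.503 (FDR = 2.82e-04) and 3.28 (FDR = 1.73e-04) in young mice and 2.87 (FDR = 4.02e-06) and 4.15 (FDR = 3.07e-06) in aged mice.

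*Rdh7*, a retinol dehydrogenase gene, was at 38.4, 28.7 and 104 CPM in ISC of Y1, Y2 and Y3 and at 28.4, 70.7 and 26.2 CPM in ISC of O1, O3 and O5. In AE it was at 293, 245 and 391.9 CPM in the young and 364, 330.1 and 242 CPM in the aged libraries. Y3 and O3 were again the highest ISC libraries, and all ISC libraries were below all AE libraries. Its log2FC stood at 2.44 (SE 0.47, FDR = 0.00321) in young and 2.83 (SE 0.38, FDR = 1.25e-04) in aged mice, or 3.21 without the ISC library of Y3 and 3.44 without that of O3.

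*Aldh1a1*, whose product oxidises retinal to retinoic acid, varied most of the 9 genes, at 62.1, 41.3 and 491 CPM in ISC of Y1, Y2 and Y3 and at 921, 780.02 and 4078 CPM in AE. In aged mice it was at 35.5, 174 and 35.1 CPM in ISC of O1, O3 and O5 and at 1984, 2314 and 822 CPM in AE. Y3 was the highest young library in both cell types and O3 the highest aged one. *Aldh1a1* had a log2FC of 3.28 (SE 1.07, FDR = 0.0315) in young and 4.32 (SE 0.71, FDR = 4.39e-04) in aged mice. The young call was lost without the ISC library of Y1 (2.85, FDR = 0.102) or Y2 (2.80, FDR = 0.0757) and without the AE library of Y3 (2.04, FDR = 0.0707), and the value was 5.22 without the ISC library of Y3. These fits did not pair the libraries that share a code. With the code as a replicate block in the same test, the young FDR of *Aldh1a1* was 3.67e-05. The neighbouring paralog *Aldh1a7* reached 165 ± 114 CPM in AE of young mice and 152 ± 55.6 CPM in AE of aged mice, against 20.3 ± 22.7 and 12.4 ± 11.6 CPM in ISC. *Aldh1a2* and *Aldh1a3*, which encode the other retinal dehydrogenases, had at most 4 counts in any library.

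Among the receptors, *Rara* was at 37.5, 26.5 and 28.1 CPM in ISC of Y1, Y2 and Y3 and at 51.9, 41.1 and 53.0 CPM in AE. In aged mice it was at 29.3, 31.9 and 29.5 CPM in ISC of O1, O3 and O5 and at 51.8, 52.9 and 51.05 CPM in AE. The groups did not overlap at either age, and the aged AE libraries lay within 2 CPM of each other. The difference was small, with a log2FC of 0.67 (SE 0.19, FDR = 0.0200) in young and 0.71 (SE 0.14, FDR = 0.00123) in aged mice. The young call was lost when any of 4 libraries was left out, with FDR = 0.0796 without ISC of Y2, 0.0684 without ISC of Y3, 0.0661 without AE of Y1 and 0.0797 without AE of Y3.

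*Rxra*, the shared partner of these receptors, was at 107, 92.4 and 117 CPM in ISC of Y1, Y2 and Y3 and at 198, 233 and 279 CPM in AE. In aged mice it was at 101, 94.3 and 106 CPM in ISC of O1, O3 and O5 and at 239, 287 and 243 CPM in AE. Levels in ISC were even, and each AE library stood above each ISC library. *Rxra* had a log2FC of 1.17 (SE 0.19, FDR = 0.00132) in young and 1.28 (SE 0.16, FDR = 7.79e-05) in aged mice. Its paralog *Rxrb* differed the other way, at 78.9 ± 7.74 CPM in ISC against 55.4 ± 2.68 CPM in AE of young mice and at 81.7 ± 5.74 against 48.3 ± 5.70 CPM in aged mice (FDR = 0.0180 and 7.22e-04). *Rxrg* had 0 counts in the 12 libraries.

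*Isx*, the homeobox repressor gene, was at 98.8, 106 and 107 CPM in ISC of Y1, Y2 and Y3 and at 105, 131 and 169 CPM in AE. In aged mice it was at 65.8, 78.5 and 76.6 CPM in ISC of O1, O3 and O5 and at 107, 89.0 and 93.8 CPM in AE. The young groups overlapped, while in aged mice the 3 AE libraries lay above the 3 ISC libraries. For *Isx* the log2FC came to 0.38 in young mice (2 SE interval from -0.0094 to 0.77, FDR = 0.133) and 0.32 in aged mice (from 0.0163 to 0.61, FDR = 0.0896). The intervals exclude differences of the size seen for *Scarb1* and *Bco1*. Other settings moved the aged result: DESeq2 (0.40, FDR = 0.0289) and RLE scaling (0.40, FDR = 0.0398) called *Isx* higher in AE, and scaling by library totals called it lower (-0.46, FDR = 0.0219).

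**Figure D2:**
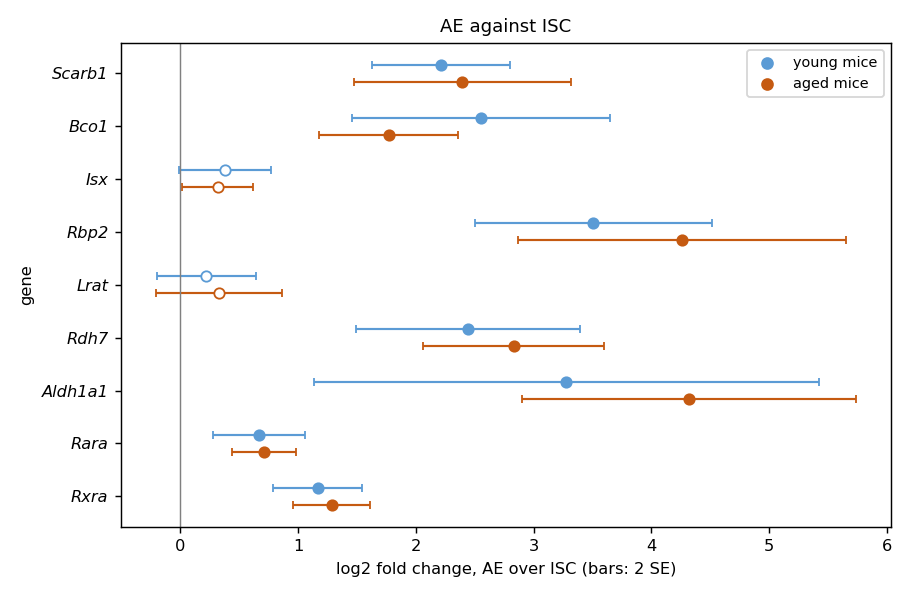
Log2FC of AE over ISC for the 9 genes in young and in aged mice, with bars of 2 standard errors and filled points where FDR is under 0.05. The values run from 0.22 for *Lrat* to 3.51 for *Rbp2* in young mice and from 0.32 for *Isx* to 4.32 for *Aldh1a1* in aged mice, and *Lrat* and *Isx* have open points at both ages.

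The direction of the smaller differences rests on the scaling. Scaling by library totals in place of TMM moved the median log2FC of all genes in young mice from 0.15 to -0.55 and in aged mice from -0.13 to -0.91. The share of all calls that were higher in AE fell with it, in young mice from 52.2% to 26.5% and in aged mice from 46.8% to 24.2%. A change of scaling moves all genes by nearly the same amount. Distances from these medians are thus almost fixed in advance and do not test which scaling is right. In young mice *Rbp2* was 3.36 above the median with TMM and 3.37 above it with library totals. The values were 0.52 and 0.51 for *Rara*, 0.23 and 0.22 for *Isx*, and 0.07 and 0.08 for *Lrat*. With library totals, 4 of the 9 genes were called higher in young mice (*Scarb1*, *Bco1*, *Rdh7* and *Rbp2*), and *Lrat*, *Isx* and *Rara* had negative log2FCs at both ages. In aged mice that scaling called *Scarb1*, *Bco1*, *Rdh7*, *Rbp2*, *Aldh1a1* and *Rxra* higher and *Isx* lower.

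The level in ISC as a percentage of the level in AE of the same code separates the 9 genes further. For the sum of the 20 enterocyte markers it was 2.35% to 11.05%, and *Rbp2* (1.45% to 15.9%) and *Aldh1a1* (1.79% to 12.05%) covered a like range. It was 7.80% to 26.6% for *Rdh7*, 14.0% to 34.9% for *Scarb1* and 13.7% to 39.4% for *Bco1*. It was 32.8% to 54.0% for *Rxra* and 52.9% to 72.2% for *Rara*, and reached 61.7% to 94.4% for *Isx* and 62.9% to 117% for *Lrat*. For 6 of the 9 genes, all but *Rbp2*, *Aldh1a1* and *Rdh7*, the lowest share was therefore above the highest share of the enterocyte markers.

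**Figure D3:**
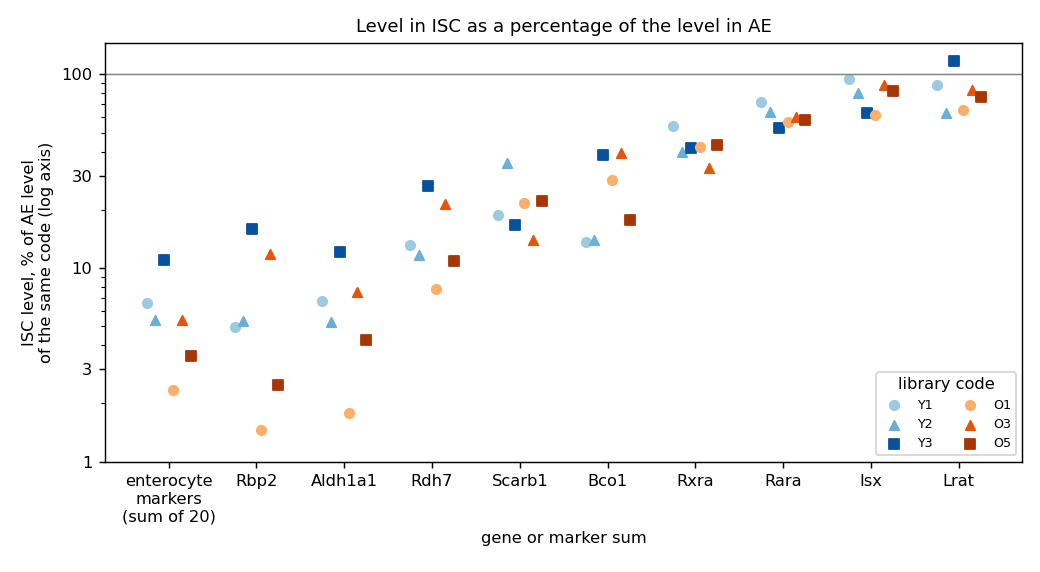
Level in ISC as a percentage of the level in AE of the same library code (log axis), for the sum of 20 enterocyte markers and for each of the 9 genes, with 1 point per code. *Rbp2* and *Aldh1a1* lie at 1.45% to 15.9%, near the marker sum, and *Isx* and *Lrat* lie at 61.7% to 117%.

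Within ISC, *Rbp2*, *Aldh1a1* and *Rdh7* were highest in Y3 and next highest in O3, the same 2 libraries in which the enterocyte marker sum was highest. The sum of 8 proximal small intestine markers had the same leaders, at 2609 CPM in Y3 and 1736 CPM in O3 against 727 to 1066 CPM in the other 4. *Fabp1* and *Lct* are on both lists, so these sums are not independent. *Fabp1* alone reached 1507 CPM in a young ISC library and 741 CPM in an aged one, so the proximal sum does not speak for each gene listed. The proximal genes *Gata4* and *Onecut2* were at 160 to 167 and 89.5 to 104 CPM in young ISC. In aged ISC they were at 131 to 178 and 83.8 to 106 CPM. The proximal gene *Slc46a1* was less even, at 8.74 to 22.7 CPM in young and 4.29 to 9.34 CPM in aged ISC. *Isx* did not follow the order of the marker sums, since O3 was below Y1 and Y2. *Lrat* ranged from 15.3 CPM in O1 to 29.4 CPM in Y1. What the RNA of enterocyte or proximal markers in these libraries contributes to the values of *Rbp2*, *Aldh1a1* and *Rdh7* was not tested.

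**Figure D4:**
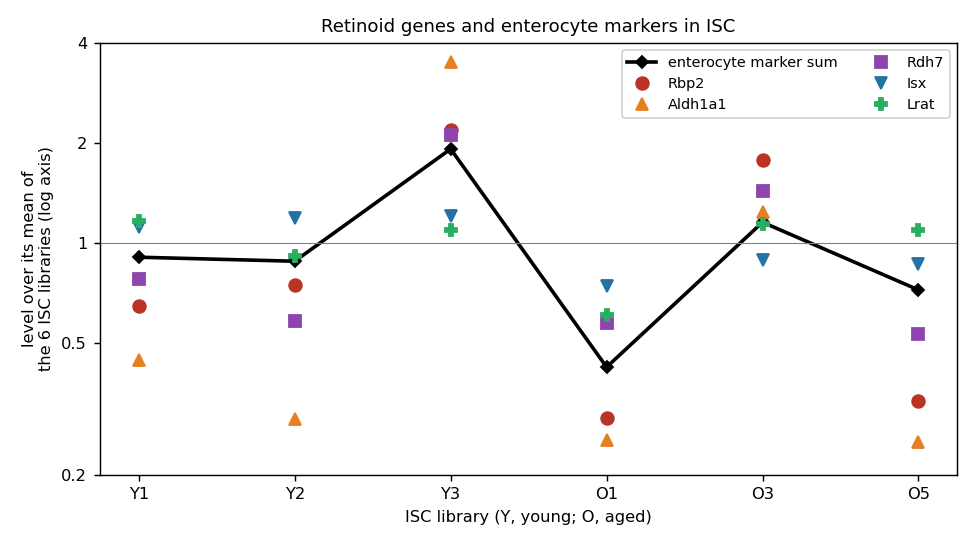
Levels in the 6 ISC libraries divided by their mean over these libraries (log axis), for the sum of 20 enterocyte markers (line), *Rbp2*, *Aldh1a1*, *Rdh7*, *Isx* and *Lrat*. The marker sum, *Rbp2*, *Aldh1a1* and *Rdh7* are each highest in Y3, and the marker sum runs from 2477 CPM in O1 to 11253 CPM in Y3.

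Of the other genes of the retinoid pathway, 63 were listed and 52 could be tested in young mice. Of these, 24 were higher in AE, 10 were lower and 18 did not pass. In aged mice 51 were tested, and 26 were higher, 11 lower and 14 not called. Over all genes tested, 4623 were higher and 4241 lower in young and 4754 higher and 5407 lower in aged mice. The largest group, retinol and retinal interconversion, had 7 genes higher, 3 lower and 9 not called in young mice, and 9 higher, 3 lower and 6 not called in aged mice. Genes of uptake and hydrolysis were higher in AE for 6 of 7 tested at both ages, those of retinol esterification for 2 of 3 and those of retinoid binding for 3 of 5. Of retinoic acid synthesis, 1 of 2 tested genes was higher at both ages. Of the nuclear receptors and their coregulators, 10 were tested, with 4 higher and 2 lower in young and 3 higher and 2 lower in aged mice. Of 4 tested targets of retinoic acid, *Rai14* was higher, *Tgm2* and *Cd38* were lower and 1 did not pass at either age.

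Among the called genes of the list with counts in ISC, the largest differences towards AE were those of *Plb1*, the brush border phospholipase that hydrolyses retinyl esters, and *Cd36*, a fatty acid and carotenoid transporter gene. *Plb1* was at 622 ± 211 CPM in young AE against 27.97 ± 16.4 CPM in ISC (log2FC 4.47, SE 0.55, FDR = 4.65e-04), and at 652 ± 32.9 against 5.001 ± 2.92 CPM in aged mice (6.97, SE 0.47, FDR = 1.53e-06). *Cd36* was at 316 ± 341 CPM in young AE against 16.2 ± 20.8 CPM in ISC (4.28, FDR = 0.0134) and at 292 ± 144 against 5.05 ± 4.04 CPM in aged mice (5.82, FDR = 2.93e-05). *Rdh9*, a retinol dehydrogenase gene that shares 68.3% of its 50-base stretches with other genes of its cluster and is therefore uncertain, was 4.17 higher in young and 5.22 higher in aged AE on the log2 scale (FDR = 2.91e-04 and 7.64e-07). *Rbp4*, which encodes the retinol carrier of plasma, was higher by 4.15 in young AE (FDR = 9.46e-04) and by 2.30 in aged AE (FDR = 0.00479). *Cyp26b1*, a retinoic acid hydroxylase gene, had 0 counts in the 6 ISC libraries, 1 to 14 counts in the young AE libraries (not called) and 3 to 6 counts in the aged ones (called higher), and *Cyp26a1*, of the same family, also had 0 counts in ISC and at most 13 in an AE library. No fold change is given for so few counts.

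Lower in AE than in ISC was *Stra6l*, a homologue of the retinol transporter gene *Stra6*, at 18.6 ± 9.04 against 60.4 ± 15.1 CPM in young mice (log2FC -1.71, SE 0.36, FDR = 0.00437) and 14.8 ± 2.93 against 86.3 ± 30.6 CPM in aged mice (-2.61, SE 0.27, FDR = 1.82e-05). *Ttr*, whose product carries RBP4 and thyroid hormone in plasma, was lower by a log2FC of -1.42 (FDR = 0.0166) and -2.32 (FDR = 4.74e-04). *Rdh1* was lower in AE by -1.62 in young and -1.45 in aged mice (FDR = 0.0183 and 0.00885) at levels under 5 CPM. Its exons overlap those of *Rdh16f1* on the same strand, and 15.6% of its 50-base stretches also occur in other genes, so its values are uncertain. *Awat2*, an acyltransferase gene, had 6 to 70 counts in ISC libraries and at most 4 counts in AE libraries, and *Rarb*, the retinoic acid receptor gene that retinoic acid itself is known to induce, had 8 to 60 counts in aged ISC and at most 1 in aged AE. In young mice *Rarb* was not called, with 4 to 20 counts in ISC and 2 to 4 in AE, and the groups overlapped in CPM.

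Which of the genes changed with age was asked within each cell type. In ISC, 0 of the 9 genes passed an FDR of 0.05, as did 0% of the 15552 genes tested. All 9 had log2FCs below 0, with a median of -0.45 against 0.01 over all genes tested. That of *Rara* turned above 0 with library totals or upper-quartile scaling. Leaving out a single library turned those of *Bco1*, *Rbp2*, *Lrat*, *Rdh7*, *Aldh1a1*, *Rara* and *Rxra* above 0 in some fits. Only *Isx* and *Scarb1* kept their sign under every alternative. Of the 9 genes, 2 had an unadjusted P under 0.05, as did 695 genes in all. In AE, 0 of the 9 genes and 0% of 16265 genes passed, 1 of the 9 genes and 809 genes in all had an unadjusted P under 0.05, and 5 of the 9 values were above 0 and 4 below. DESeq2, run on the same counts, called 58 genes in ISC and 18 in AE, none of them among the 9.

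*Isx* and *Scarb1* were the 2 of the 9 genes for which all aged ISC libraries lay below all young ones, where this was so for 4.44% of all genes tested and the opposite for 4.42% and for 0 of the 9. *Isx* in ISC averaged 104 ± 4.27 CPM at the younger age and 73.6 ± 6.87 CPM at the older one (SD, n = 3), a log2FC of -0.49 (2 SE interval from -0.75 to -0.22, FDR = 0.990). With single libraries left out it was between -0.54 and -0.41, the narrowest such range of the 9 genes. *Scarb1* averaged 7.92 ± 1.40 CPM in the young ISC libraries and 3.92 ± 1.65 CPM in the aged ones, a log2FC of -1.003 (from -1.69 to -0.31, FDR = 1.00), and its highest count in an ISC library was 189.

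In AE, *Isx* was also lower in aged mice, at 96.5 ± 9.08 against 135 ± 32.4 CPM, a log2FC of -0.47 (interval from -0.87 to -0.0720, FDR = 0.833), but O1 lay above Y1, so that the groups overlapped. *Scarb1* had a log2FC of -0.74 in AE (from -1.56 to 0.0868, FDR = 0.833) and *Bco1* of -0.73 (from -1.66 to 0.21, FDR = 0.833), and *Bco1* was at -0.13 without the AE library of Y2. The young and aged AE libraries overlapped for all 9 genes, where the aged libraries were all lower for 6.94% and all higher for 4.01% of genes tested. Neither *Isx* nor the 2 genes it is known to repress were therefore shown to change with age in either cell type. The value of *Bco1* in ISC was -0.03 (from -0.75 to 0.69) and was 0.28 without the ISC library of Y2.

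*Rbp2* differed with age by a log2FC of -0.57 in ISC (2 SE interval from -2.01 to 0.88) and 0.28 in AE (from -0.16 to 0.71). *Aldh1a1* differed by -1.28 in ISC (from -3.20 to 0.64) and -0.16 in AE (from -1.42 to 1.10), the widest intervals of the 9 genes. Without the ISC library of Y3, which was highest in enterocyte markers, the values in ISC turned to 0.22 for *Rbp2*, 0.67 for *Aldh1a1* and 0.32 for *Rdh7*, and without the AE library of Y3 that of *Aldh1a1* in AE turned to 1.03. The enterocyte markers themselves were lower in aged ISC for 19 of 20 genes and higher in aged AE for 20 of 20, with 0 called in either. Their sum overlapped between the ages in ISC, where O3 (6767 CPM) lay above Y1 (5310 CPM) and Y2 (5163 CPM). In AE it was 80191 to 101855 CPM in the young and 105376 to 126040 CPM in the aged libraries. The marker sums of the T cell, villus tip and goblet lists separated the ages in ISC, which were sorted without a CD45 stain. Those of the other marker lists overlapped in ISC. That of 10 T cell and intraepithelial lymphocyte markers was 9.31 to 22.6 CPM in the young libraries and 3.07 to 4.97 CPM in the aged ones, with 9 of the 10 values below 0, 0 called and *Cd3d*, *Cd3e*, *Cd3g* and *Gzmb* at 0 counts in more than 1 aged library. For 6 villus tip markers the sum was 336 to 992 CPM against 123 to 303 CPM, with 6 of 6 values below 0. Of that sum, *Apoa4*, which is also on the enterocyte list, held 243 to 862 CPM in young and 47.0 to 233 CPM in aged ISC. For the 7 goblet cell markers the sum was 2071 to 2400 CPM against 1532 to 1977 CPM, with 5 of 7 below 0. In the villus tip and goblet lists 0 genes were called. In AE the sum of 6 distal small intestine markers was 674 to 951 CPM in the young libraries and 1207 to 1343 CPM in the aged ones, and that of the proximal markers was highest in Y3 (15452 CPM). The part that these markers have in the values of the 9 genes was not tested.

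**Figure D5:**
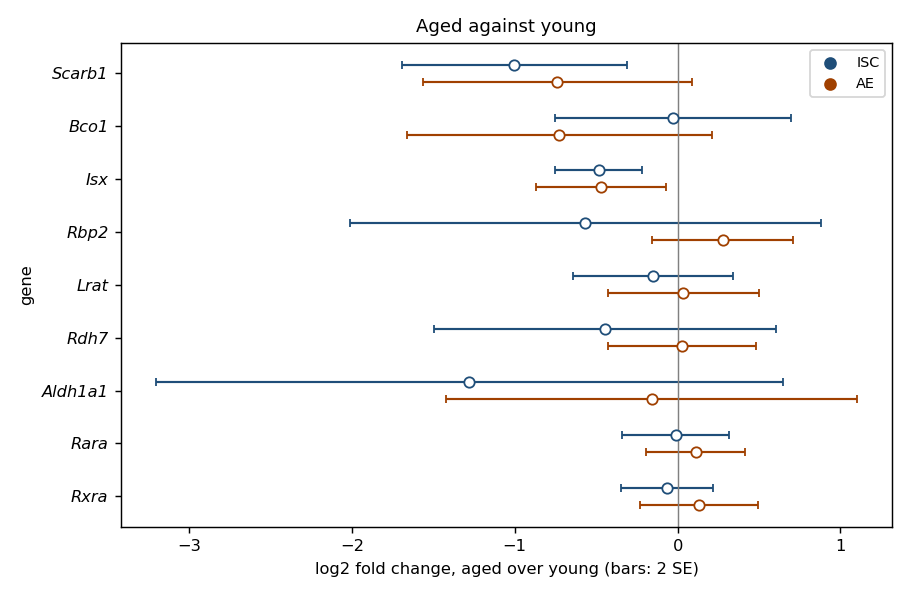
Log2FC of aged over young mice for the 9 genes in ISC and in AE, with bars of 2 standard errors. All points are open, since no FDR was under 0.05. The bars of *Isx* end below 0 in both cell types, and *Aldh1a1* has the widest, from -3.20 to 0.64 in ISC.

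For *Lrat*, *Rara* and *Rxra* the intervals of the change with age took in 0 and ran from -0.64 to 0.50 at the widest. The log2FC of *Rara* was -0.01 in ISC (2 SE interval from -0.34 to 0.32) and 0.11 in AE (from -0.19 to 0.41), that of *Rxra* was -0.06 (from -0.35 to 0.22) and 0.13 (from -0.23 to 0.50), and that of *Lrat* was -0.15 (from -0.64 to 0.34) and 0.04 (from -0.43 to 0.50). The difference of the age effect between AE and ISC was tested over all 12 libraries and passed for 0 of the 9 genes and for 1 of 17377 genes (0.00575%), *Adora2b*, an adenosine receptor gene. With the library code as a replicate block, 21 genes passed, and again 0 of the 9. For *Isx* this difference was 0.01 (interval from -0.47 to 0.49), and for *Aldh1a1* and *Rbp2* it was 1.11 (from -1.52 to 3.74) and 0.83 (from -0.90 to 2.56).

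Among the other retinoid genes, 0 of 49 tested changed with age in ISC and 0 of 51 in AE. In ISC 35 of the 49 had values below 0, with a median of -0.11, as had 19 of 20 enterocyte markers. Over all genes tested in ISC, 7448 of 15552 were below 0, with a median of 0.01. In AE 27 of the 51 were below 0, as were 8889 of all 16265 genes tested. The gene of the list with the lowest unadjusted P was *Plb1* in ISC, with 27.97 ± 16.4 CPM in the young libraries and 5.001 ± 2.92 CPM in the aged ones, a log2FC of -2.49 that did not pass (FDR = 0.753), and it had the lowest P for the difference between cell types too (2.56, FDR = 0.797). In AE it was *Dhrs9*, a dehydrogenase gene, with 3.53 ± 0.729 CPM in the young libraries and 1.34 ± 0.255 CPM in the aged ones (log2FC -1.39, FDR = 0.833). For both, the young and aged libraries did not overlap.

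The genes whose profile over the 12 libraries was most like that of *Rbp2*, by the root mean square difference of centred log2 CPM among 9393 genes with a mean of at least 10 CPM, were *Akr1b7* (0.27), *Alpi* (0.32), *Gde1* (0.32), *Mme* (0.35) and *Ceacam18* (0.37). *Akr1b7* encodes an aldo-keto reductase, and *Alpi* and *Mme* encode brush border enzymes, intestinal alkaline phosphatase and neprilysin. *Alpi* was at 2220 ± 557 CPM in AE against 173 ± 146 CPM in ISC of young mice. For *Isx*, among 12641 genes with a mean of at least 1 CPM, they were *Rab8b* (0.16), *Klhl2* (0.19), *Gng5* (0.20), *Slc10a3* (0.20) and *Rptor* (0.20), none of which is on the lists of enterocyte markers or retinoid genes. *Rab8b*, a small GTPase gene, averaged 10.5 CPM in young and 7.16 in aged ISC, and 14.8 in young and 9.83 in aged AE.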

How the data were processed

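The deposited counts are raw. The authors trimmed adaptors with Trim Galore 0.4.4, mapped reads to GRCm38 with HISAT2 2.1.0 and counted uniquely mapped reads over merged exons in SeqMonk. Unique mapping drops reads that paralogs share. The libraries were made with a directional kit, but whether the counting used strand is not given in the sources used here. A further deposited table, of the authors' own comparisons by age with log2 values and FDR, was not used.

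Each comparison took the genes that summed to 10 counts or more in its own libraries. TMM scaling and the quasi-likelihood test of edgeR 4.0.16 were run in R 4.3.3, with an FDR threshold of 0.05 after Benjamini-Hochberg adjustment over all genes tested. SE is the standard error of log2FC. CPM use TMM factors over all 12 libraries, and 3 counts were taken as the limit of detection. Such limits cover counting error only. Levels per length used the merged exons of GENCODE M21, and promoter windows are those of RefSeq.

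The 9 genes and all lists were chosen with earlier results of these data known. In every comparison the 9 genes were named. Of the 63 other retinoid genes, those named were the 4 largest called differences each way between AE and ISC, the one with the lowest P by age, and paralogs or functional neighbours of the 9 genes. *Dgat1*, *Dgat2*, *Adora2b*, *Cyp26a1* and the 3 called targets of retinoic acid were named after their values were seen.

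Column codes were taken as pairing ISC and AE libraries, since deviations from the group means correlated over genes at 0.231 to 0.450 in each of the 6 pairs that share a code, and at -0.425 to 0.145 in the 12 that do not. The main tests had no covariates and so were unpaired. The code entered a fit only as the replicate block among the alternatives. The study's methods list 3 mice of each age for RNAseq, as many as the libraries of a group, but the sources used here tie no code to a mouse, so P-values are given as measures of the spread between libraries. Alternatives were DESeq2 1.42.0, RLE and upper-quartile scaling, other filters, 1 fit on all 4 groups, leaving out each library in turn, and the code as a replicate block. Scaling by library totals and leaving out both Y3 libraries were added after the data were seen.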

Additional observations from a re-analysis of the deposited data

How the results depend on the processing

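Over the alternatives run, 609 of 673 values of the 9 genes kept their direction and their side of the FDR threshold, 10 lost the call, 2 gained it and 52 changed sign, of which 45 belong to age effects that were not called. The call of *Scarb1*, *Bco1*, *Rdh7* and *Rbp2* as higher in AE was kept under every alternative at both ages, and those of *Aldh1a1*, *Rxra* and *Rara* in aged mice were kept too, save *Rara* with library totals. DESeq2 gave no adjusted P for *Aldh1a1* in young mice and in the ISC age comparison. With the code as a replicate block, *Aldh1a1* in young mice was at 3.73, *Rbp2* in aged mice at 4.81, the difference of age effects was called for 21 genes, and no call of the 9 genes changed.

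With library totals, 4 of the 9 genes were called in young mice, where *Lrat* was at -0.47, *Isx* at -0.33 and *Rara* at -0.0440, and in aged mice at -0.46, -0.46 and -0.0751. That scaling also gave *Rara* 0.0147 with age in ISC, *Rdh7* -0.0890, *Lrat* -0.11 and *Rara* -0.0169 with age in AE, and *Isx* -0.13 and *Rara* -0.0315 for the difference, where it called 0 genes. Upper-quartile scaling gave *Rara* 0.0017 with age in ISC. Without both Y3 libraries the difference was called for 0 genes and was -0.10 for *Rdh7* and -0.0185 for *Lrat*. The count of genes called with age in ISC was 58 with DESeq2, 1 with genes of at least 1 count and 2 in 1 fit on all 4 groups, and in AE 18 with DESeq2 and 2 with at least 1 count. DESeq2 called the difference for 43 genes. The cause was not tested.

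Leaving out single libraries gave 0 to 1 genes called with age in ISC, 0 to 1 in AE and 0 to 3 for the difference. *Lrat* ran from -0.0127 to 0.33 between cell types in young mice. With age in ISC, *Rara* ran from -0.11 to 0.15, *Bco1* from -0.23 to 0.28, *Rdh7* from -1.06 to 0.32, *Rbp2* from -1.92 to 0.22, *Aldh1a1* from -2.49 to 0.67, *Rxra* from -0.15 to 0.0181 and *Lrat* from -0.31 to 0.0927. With age in AE, *Rdh7* ran from -0.11 to 0.24, *Lrat* from -0.13 to 0.21 and *Aldh1a1* from -0.53 to 1.03. For the difference, *Rara* ran from -0.0575 to 0.21, *Isx* from -0.24 to 0.17, *Rdh7* from -0.31 to 1.07, *Aldh1a1* from -0.83 to 2.32, *Lrat* from -0.0653 to 0.33, *Scarb1* from -0.18 to 0.56 and *Rxra* from -0.0208 to 0.29. *Bco1* in ISC rests on 30 to 87 counts per library, which limits its precision.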
